A study of Mus musculus with 6 samples.

Results

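The peaks described here are stretches of open chromatin inside genes that were found in the posterior second heart field (pSHF) and not in the atria (HT) of the mouse embryo. They were selected on presence in the pSHF list and absence from the HT list: a pSHF peak was kept if it overlapped no HT peak by even 1 bp, if its summit lay inside a protein-coding gene of the mm10 genome, and if the summit was more than 1 kb from either end of any annotated gene. Of 44018 pSHF peaks, 6361 met the rule, which is 14.5% (95% interval 14.1 to 14.8). They were 42.0% (41.2 to 42.8) of the 15132 pSHF-restricted peaks, of which 2654 lay within 1 kb of a gene end and 6117 elsewhere. The 93285 peaks of the series also held 10706 HT-restricted peaks inside genes, chosen in the mirror-image way. Peaks of both tissues that overlapped, called shared below, numbered 7594 inside genes in the pSHF list and 7228 in the HT list.

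The assay was ATAC-seq, in which a transposase cuts accessible DNA and leaves sequencing adapters behind. The pSHF, the progenitor tissue behind the heart that adds cells to its venous pole, and the atria were dissected from wild-type (WT) embryos of the outbred CD1 strain at E10.0, with 3 samples per tissue, each made from pooled, dissociated tissue. The deposited data used here were 1 peak list per tissue, so no value has a replicate error, no test between tissues was made, and the intervals given are exact Clopper-Pearson intervals that cover counting error over peaks only. Both tissues carry the same genotype and received no treatment, so the comparison is between tissues. Hedgehog signaling was neither altered nor measured in these samples, and a difference in its state cannot be told apart from the difference in tissue.

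As background, chromatin that opens inside a gene and away from its ends often holds enhancers, short elements that bind transcription factors and raise transcription of the gene around them or of another one at a distance. Second heart field progenitors receive Hedgehog, Wnt, Fgf, Bmp and retinoic acid signals from neighbouring tissues, some of which favour proliferation and others differentiation. Hedgehog ligands act through the receptor Patched and the transducer Smoothened on the GLI transcription factors, which bind enhancers of their target genes. Atrial cells at this stage already carry sarcomeres, ion channels and an endocardial lining.

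Only the stretches of these peaks that fall next to an annotated alternative transcription start could be read as sequence, since no genome was used. RefSeq start windows (GRCm38.p6, 250 bases before to 50 after a start) held the summit of 82 of the peaks, in 86 windows of 81 genes. The windows below are shown because they hold, or lack, the transcription factor motifs whose shares are given next. They were chosen after their values were seen. Each run is the part of the peak that lies in the 250 bases before the start, read 5′ to 3′ on the strand of the gene, and capitals mark motif matches.

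Mgat4c, which encodes a glycosyltransferase, had a peak at chr10:102158727-102159309 with a fold enrichment of 8.44, and the nearest HT peak was 290292 bp away. The run covers chr10:102158829-102159078 on the plus strand, and its capitals are a forkhead match and a GATA match.
Mgat4c: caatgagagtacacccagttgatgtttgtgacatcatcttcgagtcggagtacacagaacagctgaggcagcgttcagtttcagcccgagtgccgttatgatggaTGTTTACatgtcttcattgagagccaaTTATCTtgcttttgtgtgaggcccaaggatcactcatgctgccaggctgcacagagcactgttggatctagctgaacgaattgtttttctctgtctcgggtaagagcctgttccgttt
Slc7a11, the cystine transporter gene, had a peak at chr3:50443554-50443904 with a fold enrichment of 5.14. The run covers chr3:50443614-50443863 on the minus strand, and its capitals are a forkhead and a MEIS match.
Slc7a11: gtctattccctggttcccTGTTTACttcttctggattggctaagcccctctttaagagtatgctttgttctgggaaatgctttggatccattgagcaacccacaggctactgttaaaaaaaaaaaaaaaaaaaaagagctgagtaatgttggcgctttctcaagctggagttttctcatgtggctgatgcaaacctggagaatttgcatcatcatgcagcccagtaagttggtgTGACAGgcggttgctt
Lhx4, a LIM-homeodomain factor gene, had a peak at chr1:155742107-155742301 with a fold enrichment of 5.10. The run covers chr1:155742107-155742277 on the minus strand, and its capitals are a HOX/PBX match that contains an AP-1 match.
Lhx4: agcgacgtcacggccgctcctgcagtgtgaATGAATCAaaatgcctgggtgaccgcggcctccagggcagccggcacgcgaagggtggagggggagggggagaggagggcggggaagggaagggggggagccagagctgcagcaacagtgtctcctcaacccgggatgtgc
Celf3, an RNA-binding protein gene, had a peak at chr3:94484184-94484384 with a fold enrichment of 3.75. The run covers chr3:94484184-94484326 on the plus strand, and its capitals are a HOX/PBX match and then an E-box.
Celf3: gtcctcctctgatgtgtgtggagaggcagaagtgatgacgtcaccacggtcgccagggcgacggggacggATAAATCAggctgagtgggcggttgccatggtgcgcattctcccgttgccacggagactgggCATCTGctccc
Rarg, a retinoic acid receptor gene, had a peak at chr15:102246505-102246637 with a fold enrichment of 3.15. The run covers that whole peak on the minus strand, and its capitals are an E-box.
Rarg: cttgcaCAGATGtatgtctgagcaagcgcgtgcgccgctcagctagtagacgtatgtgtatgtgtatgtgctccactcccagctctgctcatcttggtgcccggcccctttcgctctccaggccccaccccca
Stra6, the cell-surface receptor gene for retinol uptake, had a peak at chr9:58128816-58129349 with a fold enrichment of 6.88, and the nearest HT peak was 28600 bp away. The run covers chr9:58129099-58129348 on the plus strand and holds none of the motifs searched.
Stra6: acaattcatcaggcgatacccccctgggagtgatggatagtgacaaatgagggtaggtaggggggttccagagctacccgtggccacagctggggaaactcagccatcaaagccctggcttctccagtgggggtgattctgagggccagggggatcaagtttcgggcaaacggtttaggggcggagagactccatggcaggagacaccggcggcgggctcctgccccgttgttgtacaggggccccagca
Asic2, an acid-sensing ion channel gene, had a peak at chr11:81152869-81153082 with a fold enrichment of 5.12. The run covers chr11:81152904-81153082 on the minus strand and holds none of the motifs searched.
Asic2: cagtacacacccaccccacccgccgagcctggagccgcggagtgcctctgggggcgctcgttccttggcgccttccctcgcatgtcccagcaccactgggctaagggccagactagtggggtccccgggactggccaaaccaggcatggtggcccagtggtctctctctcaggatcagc

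Of these peaks, those in Rarg, Asic2 and Lhx4 lay 385, 392 and 685 bp from an HT peak, and those in Celf3 and Slc7a11 11236 and 32141 bp. The motifs were searched on both strands of the whole 300-base windows. They were GACCACCCA for GLI proteins, AGATAA for the GATA family, TGTTTAC for forkhead proteins, AGGTGTGA for the T-box family, ACATTCC for TEAD proteins, CACTTGA for NKX2 proteins, TATTTATA for MEF2 proteins, TGATTNAT for HOX and PBX partners (written HOX/PBX), TGACAG for MEIS proteins, CATCTG for the E-box of HAND and TWIST proteins, TGANTCA for AP-1, which can lie within a HOX/PBX match, and the CTCF motif. The E-box was present in 20 of the 86 windows at pSHF-restricted peaks, or 23.3% (14.8 to 33.6). It was present in 11.7% (6.53 to 18.8) of the 120 windows at HT-restricted peaks, in 11.0% (9.11 to 13.2) of the 952 windows at shared pSHF peaks and in 14.6% of all 21263 start windows. HOX/PBX matches were present in 8.14% (3.34 to 16.1) of the windows at pSHF-restricted peaks, 2.50% (0.519 to 7.13) at HT-restricted peaks, 1.05% (0.505 to 1.92) at shared peaks and 2.75% overall. For HOX/PBX the interval of the pSHF-restricted windows lay above that of the shared windows and overlapped that of the HT-restricted windows. For the E-box the same order depended on how windows were counted, since some peaks fall in several windows of a gene. With 1 window per peak, a count added after seeing the data, the E-box share was 22.0% (13.6 to 32.5) at pSHF-restricted and 11.4% (9.37 to 13.7) at shared pSHF peaks, and these intervals overlapped. Repeated windows, such as those of Celf3, also raised the HOX/PBX share. Counted once per peak it was 6.10% (2.01 to 13.7) at pSHF-restricted and 2.65% (0.551 to 7.56) at HT-restricted peaks. At shared pSHF peaks it was 0.902% (0.390 to 1.77), which narrowly stayed apart from the pSHF-restricted interval.

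GATA and TEAD matches showed the other order. GATA, the motif of the cardiac and blood GATA factors, was present in 7 of 86 windows at pSHF-restricted peaks, or 8.14% (3.34 to 16.1), against 27 of 120 at HT-restricted peaks, or 22.5% (15.4 to 31.0), and 9.65% of all windows. TEAD was present in 2.33% (0.283 to 8.15) against 9.17% (4.67 to 15.8), and 3.38% of all windows. The intervals of the 2 restricted sets overlapped for both motifs. With 1 window per peak they overlapped for TEAD and narrowly parted for GATA, at 7.32% (2.73 to 15.2) against 23.0% (15.6 to 31.9). Forkhead matches were in 4 of the 86 windows, or 4.65% (1.28 to 11.5), and in 1 of the 120. The forkhead share over all windows, 3.01%, lay within the interval of the pSHF-restricted windows. MEIS matches were about as frequent in both restricted sets, at 12.8% and 12.5%, and were in 18.7% of all windows. The GLI motif was in 0 of 86 windows, for which 3 counts give a limit of 3.49% and the Clopper-Pearson interval one of 4.20%, and in 0.179% of all windows. The sets also differed in base composition, with a median GC content of 60.0% at pSHF-restricted peaks, 55.7% at HT-restricted peaks and 62.3% at shared pSHF peaks, and a median of 11, 7 and 21 CpG dinucleotides per window. The part of base composition in these shares was not tested, and a match is a description of letters and not a bound site.

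**Figure D1:**
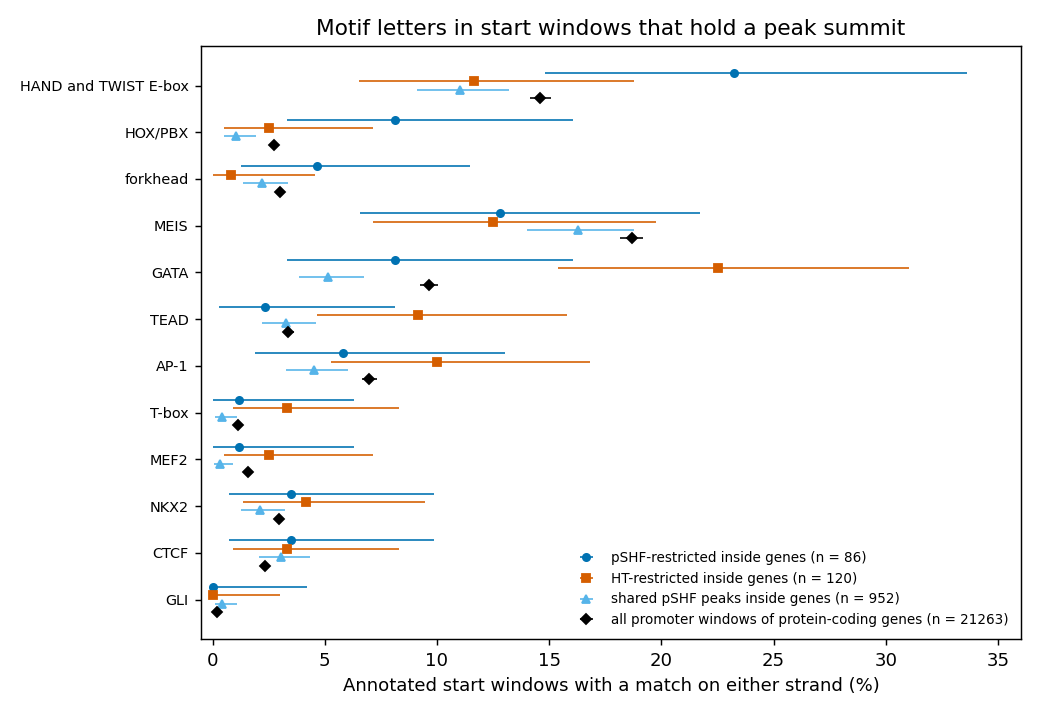
Share of 300-base start windows (percent, horizontal axis) that hold each motif, for windows at pSHF-restricted, HT-restricted and shared pSHF peaks inside genes and for all start windows; bars through points are 95% Clopper-Pearson intervals. The E-box stands at 23.3% at pSHF-restricted peaks and 11.7% at HT-restricted peaks, and GATA at 8.14% and 22.5%.

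The pSHF-restricted peaks inside genes were low and narrow. Peaks near the caller's threshold are more often missing from the other list, so the rule itself selects on strength. The contrasts with shared peaks, here and in the next paragraph, are therefore a description only. Their fold enrichment over the peak caller's background had a median of 4.31 (interquartile range 3.77 to 4.85) and ranged from 2.28 to 11.5. The median was 4.89 (4.07 to 6.02) in HT-restricted peaks inside genes, and 4.94 (4.20 to 6.25) in shared pSHF peaks inside genes. The read pileup at the summit, recovered from the deposited fold enrichment and p-value, had a median of 8 reads (7 to 10), with a lowest value of 5 and a highest of 32, against 9 in HT-restricted and 12 in shared pSHF peaks. In bulk tissue, a site open in few cells and a site open little in many cells cannot be told apart. The median width was 163 bp (123 to 230), against 174 bp in HT-restricted and 273 bp in shared pSHF peaks. At the smallest width in the pSHF list, 118 bp, were 22.2% of the pSHF-restricted and 6.54% of the shared pSHF peaks. At the smallest width in the HT list were 17.3% of the HT-restricted peaks, so narrow peaks were common in both restricted sets.

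Strong peaks were rare in this set. A fold enrichment of 6 or more was reached by 326 peaks, or 5.12%, against 25.1% of the HT-restricted and 28.0% of the shared pSHF peaks. The q-value, the caller's p-value adjusted for the number of tests, reached 5 or more on the −log10 scale in 995, or 15.6%, against 41.6% and 49.6%. The lists were not equally strong, since shared HT peaks inside genes had a median fold enrichment of 6.01. Among pSHF peaks inside genes, the share found in pSHF alone fell from 61.5% below a fold of 4 to 52.9% between 4 and 5, 37.1% between 5 and 6, 18.2% between 6 and 8, and 2.70% (21 of 779) at 8 or more. In the HT list, 30.9% of peaks inside genes at 8 or more were restricted. A single summit was recorded for 96.5% of the pSHF-restricted, 97.9% of the HT-restricted and 75.9% of the shared pSHF peaks.

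**Figure D2:**
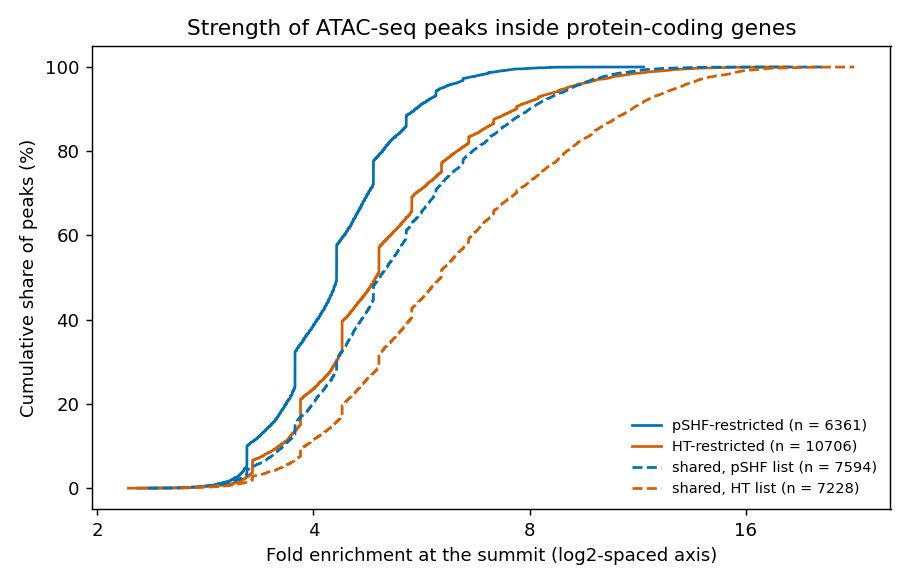
Cumulative share of peaks inside genes (percent, vertical) at or below each fold enrichment (horizontal, log-spaced axis), with 1 line each for pSHF-restricted, HT-restricted, shared pSHF and shared HT peaks. The pSHF-restricted line lies farthest left, with its median at 4.31 and its end at 11.5.

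The 10 highest peaks lay in 9 genes. The highest was at chr16:90407788-90408192 in Hunk, which encodes a protein kinase, with a fold enrichment of 11.5, a pileup of 32 reads and a −log10 q of 24.8; the nearest HT peak was 1817 bp away. Next was chr2:134826033-134826433 in Plcb1, the gene of phospholipase C beta 1, with a fold enrichment of 9.33 and 19 reads. Nell1, which encodes a secreted protein active in bone formation, held 2 of the 10. They were chr7:50357188-50357588, at 9.16 and 231240 bp from the nearest HT peak, and chr7:50105897-50106173, at 8.59. The others were in Samd5 (8.70), Sgms2, a sphingomyelin synthase gene (8.69), Celf2, an RNA-binding protein gene (8.54), Macrod2 (8.54), Stau2, which encodes a double-stranded RNA-binding protein (8.53), and Caly (8.45). None of these 9 genes belongs to the Hedgehog or retinoic acid lists described further on.

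Many pSHF-restricted peaks had an HT peak not far off. The nearest HT peak was a median of 10799 bp away (3161 to 26686). It was within 500 bp for 815 peaks, or 12.8%, against 6.66% of HT-restricted peaks with a pSHF peak that near. It was over 50 kb away for 729, or 11.5%. At the edge of the rule, 41 peaks had an HT peak at most 10 bp away, with a median fold enrichment of 4.20, and 50 pSHF peaks inside genes were left out for an overlap of at most 10 bp, with a median of 4.22. With summits up to 100 bp beyond the 1 kb limit from a gene end there were 80 peaks, with a median of 3.82. Another 82 restricted pSHF peaks, with summits up to 100 bp short of the limit, were left out, with a median of 3.92.

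The peaks were spread over 3480 genes, of which 2133 held 1, 705 held 2 and 642 held 3 or more. The last group held 2914 of the peaks. Host genes were long, with a median of 87.1 kb against 17.1 kb for all 21900 protein-coding genes and 66.9 kb for hosts of HT-restricted peaks. Distances from the start of the host gene could be measured for the 77.1% of peaks whose host strand was known. The median was 57.7 kb (18.8 to 156), against 46.2 kb for HT-restricted and 26.2 kb for shared pSHF peaks. Over 100 kb from the start lay 36.1% of the pSHF-restricted, 29.1% of the HT-restricted and 22.6% of the shared pSHF peaks.

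Of all 17067 restricted peaks inside genes, 37.3% (36.5 to 38.0) were pSHF-restricted. This share was higher in long genes. It was 33.2% in host genes under 50 kb, 35.1% from 50 to 200 kb and 41.9% from 200 to 500 kb. In genes of 500 kb or more it was 43.6% (41.4 to 45.8). Per Mb of gene, pSHF-restricted peaks were densest in genes of 200 to 500 kb (7.56) and sparsest in those of 500 kb or more. Between these classes HT-restricted peaks fell from 10.5 to 5.83 per Mb. The higher share in the longest genes therefore does not mean a higher density of pSHF-restricted peaks. On the autosomes the pSHF share ran from 34.2% on chromosome 13 to 41.8% on chromosome 9. On the X chromosome it was 28.8% (81 of 281, 23.6 to 34.5). Alternative starts inside genes were seldom near: 5.54% of the pSHF-restricted peaks had a summit within 1 kb of one, as had 3.56% of the HT-restricted and 22.8% of the shared pSHF peaks. The peaks had their nearest neighbour of the same set at a median of 42981 bp, and 22.2% had one within 10 kb.

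Host genes were next compared by how many restricted peaks of each tissue they held. Of 6439 genes with a restricted peak of either tissue inside, 27.7% (1785) held more pSHF-restricted peaks and 61.2% (3943) more HT-restricted peaks. An excess of at least 5 pSHF-restricted peaks was found in 0.621% (40 genes) and an excess of at least 5 HT-restricted peaks in 2.76% (178 genes). Since presence in the lists chose the peaks, these counts are a description. No HT-restricted peak was found in 1317 of the genes with a pSHF-restricted peak, and 85 of those held 3 or more pSHF-restricted peaks. The genes with the pSHF excess were long, with a median of 390 kb, against 230 kb for those with the HT excess.

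Lrmda had by far the most pSHF-restricted peaks by count, though not by density. It held 2.80 per 100 kb, above Asic2 (1.29) but below Unc5c (3.25), Gli2 (4.54) and Pappa (4.71). This gene, named for its part in melanocyte differentiation, spans 1037 kb (chr14:22019504-23056093) and held 29 pSHF-restricted, 4 HT-restricted and 6 shared pSHF peaks. The 29 had fold enrichments of 3.19 to 6.14, with a median of 4.31, and the highest, at chr14:23015011-23015173, was 206524 bp from the nearest HT peak. Asic2, the ion channel gene shown above (1088 kb), held 14 against 3, with a highest fold enrichment of 5.39. Pappa, which encodes a protease that releases insulin-like growth factors from their binding proteins (233 kb), held 11 against 1. Its highest peak, chr4:65243313-65243506, had a fold enrichment of 7.64 but lay 371 bp from an HT peak. Its next, chr4:65297140-65297451, had 7.03 and lay 7685 bp from one.

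Unc5c, a receptor for the guidance molecule netrin, held 12 against 3, the highest at chr3:141733893-141734227 with a fold enrichment of 6.46. Sox6, a gene of an SRY-related transcription factor of cartilage and muscle, held 11 against 2, with fold enrichments of 3.50 to 5.02. Plcb1 held 9 against 1 and Ttc28 12 against 5. Tshz2, a zinc-finger transcription factor gene, held 10 against 3, as did Skap1, an adaptor protein gene. Mpped2 and Ccser1 each held 8 against 1. Large numbers of pSHF-restricted peaks did not always come with an excess: Auts2, a gene of nervous system development, held 15 against 22, and the forkhead factor gene Foxp1 held 12 against 8. Macrod2, at 1998 kb, held 8 against 24. The genes at the other end included Prkce, a protein kinase C gene, with 1 against 15, and Spock1, with 0 against 12.

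These gene counts depended on weak peaks. A stricter threshold, counting only peaks whose −log10 q reached 5 and still calling them restricted against every peak of the other list, left 995 pSHF-restricted peaks inside genes, and 18.3% of restricted peaks were then from pSHF. Of the 16 genes named here or below with an excess of at least 5, 8 still held more pSHF-restricted than HT-restricted peaks and 0 still had an excess of 5. Lrmda then held 5 pSHF-restricted of 8 restricted peaks, Pappa 3 of 3, Plcb1 3 of 3, Nell1 4 of 4, Unc5c 2 of 2 and Sox6 0 of 1.

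**Figure D3:**
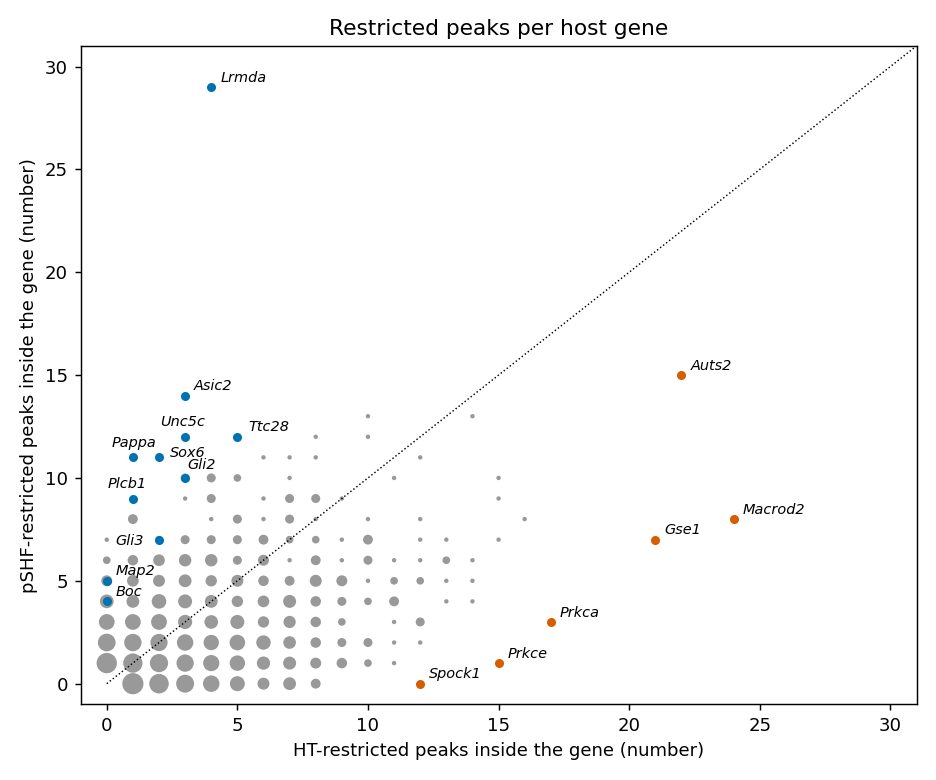
Number of pSHF-restricted (vertical) and HT-restricted (horizontal) peaks inside each host gene; dot area grows with the number of genes at a point, the dotted line marks equal numbers, and colored dots are named genes. Lrmda stands apart at 29 against 4, and Macrod2 at 8 against 24.

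The Hedgehog pathway list held 20 genes, of which 16 had a restricted peak inside. These held 29 pSHF-restricted and 26 HT-restricted peaks, a pSHF share of 52.7% (38.8 to 66.3), against 37.3% over all genes. This comparison was not matched for gene length, and the interval treats peaks of 1 gene as independent. Counted by gene, 4 held more pSHF-restricted and 10 more HT-restricted peaks, and the median difference was -1, as over all genes. The excess was mainly in the transcription factor genes Gli2 and Gli3 and in the co-receptor gene Boc. Gli2, which encodes the main activator of the pathway, held 10 against 3. Gli3, which encodes mainly a repressor, held 7 against 2. Boc, a co-receptor that binds Hedgehog ligands, held 4 against 0 and no shared peak inside.

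The other genes of the list named here showed no excess of that size. Ptch1, the receptor, and Cdon, a co-receptor like Boc, each held 1 against 1. Gli1, a transcriptional target of the pathway, held 1 against 0, and Smo, the transducer, 0 against 1. Sufu, which holds GLI proteins in the cytoplasm, held 2 against 3, Disp1, needed for ligand release, 2 against 5, and Hhip, a ligand-binding inhibitor, 0 against 1. Under the stricter threshold the Hedgehog list held 10 pSHF-restricted of 19 restricted peaks, or 52.6%, while the share over all genes was 18.3%. In that count Gli2 held 1 of 2, Gli3 3 of 4 and Boc 2 of 2.

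Within Gli2 (chr1:118834061-119054405, minus strand) the 10 peaks had fold enrichments of 2.85 to 5.08 and pileups of 9 to 20 reads. The highest, chr1:118982993-118983262, lay 71.3 kb from the gene start and 291 bp from the nearest HT peak. A set of 3 lay close together between chr1:118912955-118913137 and chr1:118914173-118914300, 140 to 141 kb from the start, with fold enrichments of 4.38, 4.13 and 4.48 and 7623 to 8841 bp from any HT peak. The remaining peaks included chr1:119025735-119025908 at 4.86 and chr1:118878445-118878588 at 4.58, the latter 23786 bp from an HT peak.

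Within Gli3 (chr13:15463723-15730026, plus strand) the strongest of the 7 peaks was chr13:15542101-15542429, with a fold enrichment of 6.57 and a pileup of 20 reads, 78.5 kb from the start and 28741 bp from any HT peak. A second peak, chr13:15541791-15541915 at 4.68, lay beside it. The peak chr13:15504512-15505045 had 3 summits and a fold enrichment of 5.78, and it was 40675 bp from any HT peak. The weakest of the 7, chr13:15715105-15715238, had 3.23 with 5 reads. In Boc (chr16:44485045-44558870) the 4 peaks had fold enrichments of 4.11, 4.84, 5.43 and 6.61, and all were 7152 bp or more from any HT peak. The strongest, chr16:44538379-44538790, had a pileup of 23 reads.

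**Figure D4:**
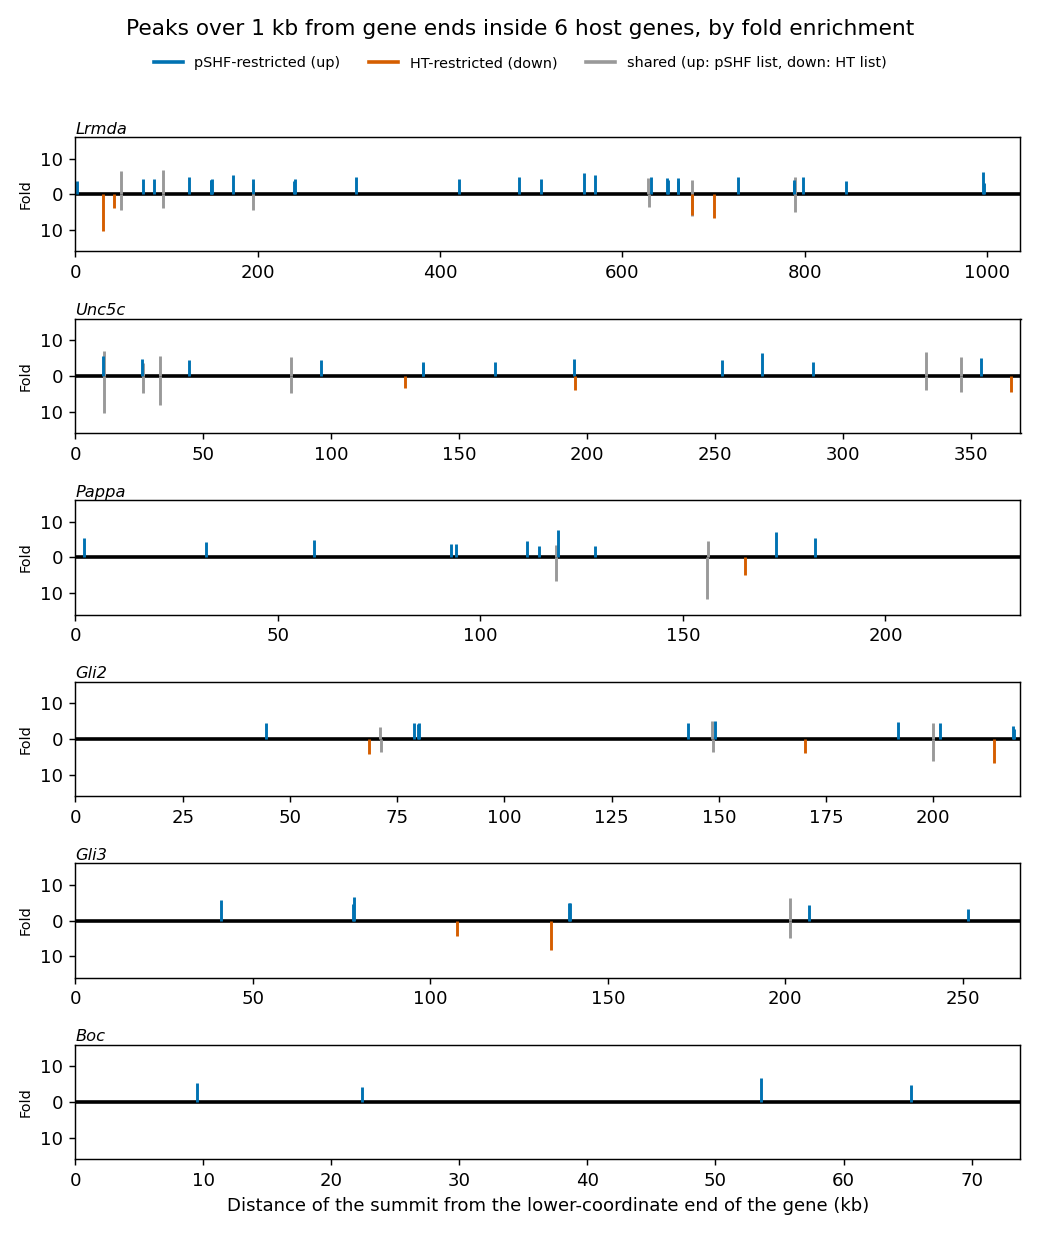
Peaks inside selected host genes, each a vertical line at its distance in kb from the low-coordinate end of the gene (horizontal), as long as its fold enrichment; pSHF peaks point up and HT peaks down, in blue and orange where restricted and gray where shared. Gli2 shows its 10 pSHF-restricted peaks at fold enrichments of up to 5.08, and Boc shows 4 with no HT-restricted peak.

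Genes of the retinoic acid list held 19 pSHF-restricted and 17 HT-restricted peaks, a share of 52.8%, with 5 genes higher in pSHF, 3 in HT and 3 equal. Rarb, a receptor that is itself induced by retinoic acid, held 7 against 6, its highest at chr14:16901846-16902123 with a fold enrichment of 5.69 and 167733 bp from any HT peak. Rara held 3 against 2 and Rarg 2 against 0. Aldh1a2, the enzyme that makes retinoic acid in embryonic mesoderm, held 2 against 0 and no shared peak inside, the higher at chr9:71262609-71262951 with 4.55. Under the stricter threshold the share was 4 of 11, or 36.4%, against 18.3% over all genes.

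The Wnt list held 41 against 51, a share of 44.6%, with 12 genes higher in pSHF, 11 in HT and 2 equal. Tcf7l1, a nuclear effector that represses targets in the absence of Wnt, held 8 against 5. Dkk2, a secreted Wnt antagonist, held 3 against 0, and Lgr5, an R-spondin receptor, 3 against 1. Under the stricter threshold the Wnt list held 12 of 29, or 41.4%, against 18.3% over all genes. The list of Fgf, Bmp, Tgf-beta, Notch and Pdgf signaling held 44 against 33, or 57.1% (45.4 to 68.4), with 12 genes higher in pSHF and 8 in HT. Pdgfc, a ligand of the Pdgf receptors, held 5 against 1, the highest at chr3:81205070-81205546 with 6.61 and 165560 bp from any HT peak. Bmpr1b, a Bmp receptor, held 4 against 2, and Notch2 3 against 2. The list's share fell to 25% under the stricter threshold, at which the share over all genes was 18.3%.

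The list of axon guidance receptors and ligands, which also steer migrating mesenchyme, held the most pSHF-restricted peaks of the 18 lists, 110 against 102. Its share was 51.9% (44.9 to 58.8), and 38.1% under the stricter threshold, against 18.3% over all genes at that threshold. By gene, 14 were higher in pSHF, 15 in HT and 3 equal. Apart from Unc5c, the named members were near balance: Robo1 and Robo2, receptors for Slit, held 10 against 11 and 6 against 8, and Efna5, an ephrin ligand, held 7 against 5. The strongest Efna5 peak, chr17:62695220-62695429, had a fold enrichment of 8.44 with 18 reads, 7627 bp from any HT peak. In the list of adhesion and extracellular matrix the counts were 99 against 131, or 43.0%, with Pappa at 11 against 1 and the adhesion molecule gene Cadm1 at 7 against 3. Cdh13, a cadherin gene, held 4 against 14.

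The list of second heart field and splanchnic mesoderm held 22 against 37, a share of 37.3%, as over all genes. Its genes were nonetheless split 7 higher in pSHF to 5 higher in HT, with a median difference of 1. Meis2, a homeodomain factor gene, held 3 against 7, while Eya1, a transcriptional co-activator gene, held 3 against 2. The list's share was 11.8% under the stricter threshold, at which the share over all genes was 18.3%. Gut and visceral mesenchyme genes held 34 against 30, or 53.1% (40.2 to 65.7), and 3 of 11, or 27.3%, under the stricter threshold. Tshz2 (10 against 3) and Tcf4 (11 against 6) held more pSHF-restricted peaks and Zfhx3 (7 against 10) more HT-restricted ones, and with the stricter threshold on both lists the differences of Tshz2 and Tcf4 turned to -2 and -1.

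Lists of differentiated heart cells had low shares, though only the intervals of sarcomere and endothelial genes lay below 37.3%. Under the stricter threshold, with 18.3% over all genes, sarcomere genes had 11.5%, endothelial genes 14.3% and ion handling genes 16.7%. Cardiac transcription factors then had 5 of 25, or 20%, which is not low. With that threshold on both lists, cardiac transcription factors (22.6%) and ion handling genes (23.3%) lay above the 20.1% over all genes. Cardiac transcription factors held 21 against 52, or 28.8%, with 1 gene higher in pSHF and 12 in HT. The gene higher in pSHF was Prdm16, a regulator of chromatin and cell fate, at 7 against 6. Tead1, a factor of the Hippo pathway, held 5 against 8, and the GATA cofactor genes Zfpm1 and Zfpm2 held 3 against 8 and 3 against 6. Sarcomere genes held 17 against 51, or 25% (15.3 to 37.0), with 1 gene higher in pSHF and 16 in HT, and Nebl, which encodes an actin-binding protein of the Z-disc, held 5 against 5. Ion handling genes held 36 against 72, or 33.3%. Here the calcium channel genes Cacna1c and Cacna1d and the sodium-calcium exchanger gene Slc8a1 were higher in pSHF, at 8 against 7, 6 against 3 and 5 against 3, as 3 genes of 19. Endothelial and endocardial genes held 14 against 45, or 23.7% (13.6 to 36.6), with 0 genes higher in pSHF and 9 in HT. Flt1, a Vegf receptor gene, held 3 against 6.

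Lists of neighbouring tissues that a dissection could include held few peaks. Neural tube and neuron genes held 16 against 8, or 66.7% (44.7 to 84.4), with 5 genes higher in pSHF, 3 in HT and 2 equal. Map2, a neuronal cytoskeleton gene, held 5 against 0, Lmx1b, a homeodomain gene, 4 against 1, and Nkx2-2 2 against 2. Somite and myogenic genes held 6 against 2, with Pax3 and Meox2 at 2 against 0 each. Foregut endoderm genes held 6 against 7, epicardial genes 8 against 6, erythroid genes 5 against 15 and neural crest genes 3 against 6. The part of such tissue in the pSHF-restricted set was not tested. Under the stricter threshold the neural tube list held 0 of 4 restricted peaks from pSHF, too few to read a share from. As a check of the labels, peaks in the gene or within 1 kb of it numbered 3 in pSHF and 1 in HT for Isl1, a second heart field factor, 3 and 0 for Foxf1, a splanchnic mesoderm factor, and 1 and 1 for Osr1. They numbered 0 and 1 for each of Myl7, an atrial myosin light chain gene, Nppa and Nkx2-5.

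**Figure D5:**
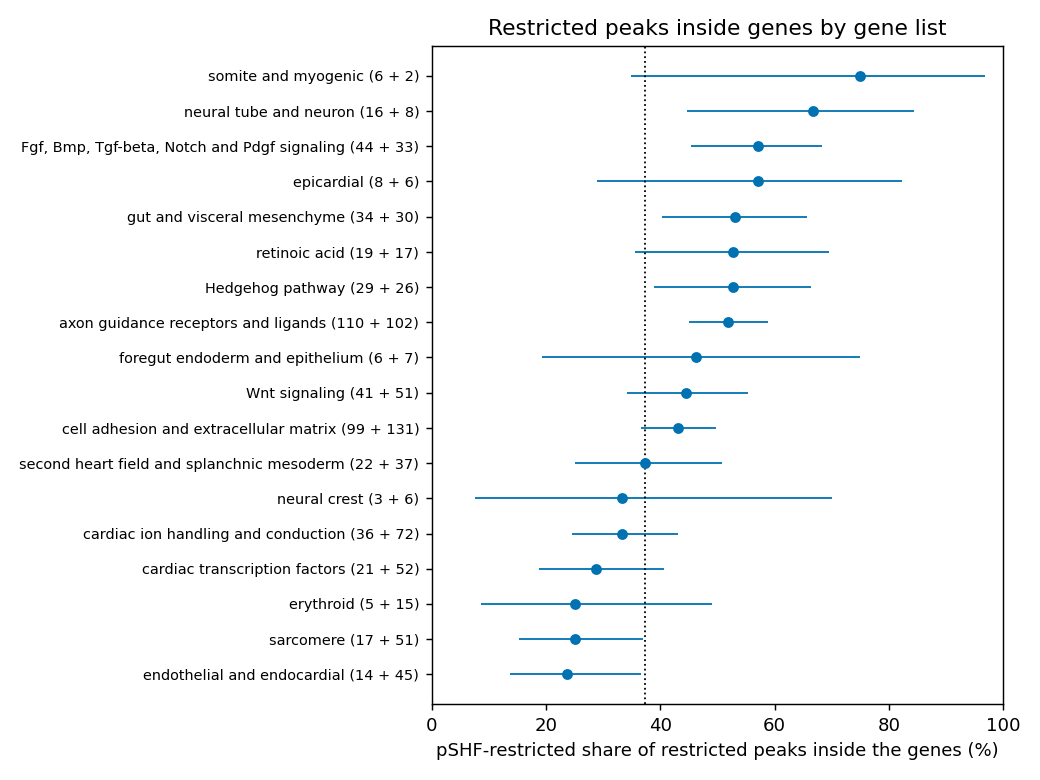
Share of restricted peaks inside the genes of each list that were pSHF-restricted (percent), with 95% Clopper-Pearson intervals and the counts of both tissues; the dotted line marks 37.3% over all genes. The intervals of 5 lists lie above the line. They are neural tube (66.7%), Fgf, Bmp, Tgf-beta, Notch and Pdgf (57.1%), gut mesenchyme (53.1%), Hedgehog (52.7%) and axon guidance (51.9%). Those of sarcomere and endothelial genes lie below it, and the others span it. The intervals treat peaks of 1 gene as independent, and the line is not matched for gene length. Of the 5, Hedgehog (from 38.8%) and gut mesenchyme (from 40.2%) have intervals that reach below 41.9%, the share in genes of 200 to 500 kb.

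The peaks at the start of the host genes were not used to choose the set and could be compared separately, for genes with a known start. Of 1365 genes with more pSHF-restricted peaks inside, 63.5% had a peak within 1 kb of the start in both lists, 3.66% in pSHF alone, 3.22% in HT alone and 29.6% in neither. Of 3094 genes with more HT-restricted peaks inside, 72.01% had a start peak in both lists, 2.20% in pSHF alone and 4.10% in HT alone. Genes with no restricted peak inside had one in both lists in 49.6% of 12492 cases. Where both lists had a start peak, the log2 ratio of pSHF to HT fold enrichment had a median of -0.30 in genes with more pSHF-restricted peaks, -0.31 in genes with more HT-restricted peaks and -0.35 in genes with none. The ratio was above 0 in 20.1%, 17.2% and 14.2% of them. The strength of the start peak thus differed little between these sets, while HT start peaks had the higher fold enrichment in most genes of each.

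The same held for genes with a large excess inside. Of 33 with an excess of at least 5 pSHF-restricted peaks and a known start, 78.8% had a start peak in both lists and 0 in a single list, and the median log2 ratio was -0.20 over 26 genes. It was -0.31 over the 123 genes with an excess of at least 5 HT-restricted peaks. Gli2 had a start peak of 6.54 in pSHF and 6.34 in HT, a log2 ratio of 0.04. Gli3 had 6.78 and 9.82, a log2 ratio of -0.53. For Lrmda the values were 4.08 and 8.64, a log2 ratio of -1.08. For Sox6 they were 5.93 and 6.70, a log2 ratio of -0.18, close to the median of -0.20 in this group. Both genes had the higher start peak in HT, as had most genes of each set. Nell1 had the higher start peak in pSHF, at 5.32 against 3.40, a log2 ratio of 0.65.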

How the data were processed

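Per the submitters' processing notes, the tools named are Bowtie2 2.3.2, SAMtools 1.5, Picard and MACS2 2.1.1, with the genome build mm10. Their roles and parameters, and whether the 3 samples of a tissue were pooled for calling, are not stated in the sources used here. The deposited lists hold 58887 pSHF and 60223 HT lines, each a summit with the authors' score, fold enrichment (a ratio), −log10 p and −log10 q, and the deposited summit offset. Lines with equal chromosome, start and end were merged, which left 44018 and 49267 peaks on 20 chromosomes. Summit pileups were recovered from the deposited fold as (pileup + 1)/(background + 1) and matched the deposited p-value within 0.01 at 100% of summits. The lowest background pileup was 0.857 reads in pSHF and 0.824 in HT. Read totals are unknown.

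Gene bodies came from RefSeq GRCm38.p6, and each summit was placed by them. Exons and introns were not used here. Planned motif counts around summits need a genome, so motifs were searched in RefSeq start windows instead, which leave out chromosome 18. Named genes were the 12 with the most members of the set, the 12 and 6 with the largest pSHF and HT excess, hosts of the 10 highest peaks and up to 4 per gene list; Ptch1, Cdon, Gli1, Smo, Disp1, Hhip and the printed windows were added after their values were seen. All 381 symbols of the 18 lists were found. The set, the lists and the motifs were chosen with earlier results of these data known. Shares carry 95% Clopper-Pearson intervals (scipy 1.17.1). The steps that find overlaps, distances and host genes were tested on simulated peaks. Alternatives were other overlap, distance, q, gene-type and summit rules.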

Additional observations from a re-analysis of the deposited data

How the results depend on the processing

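The overlap, distance, gene-type and midpoint rules gave between 4955 and 8974 pSHF-restricted peaks inside genes. Their share of restricted peaks inside genes, 37.3% here, was 40.9% with a 50% reciprocal overlap and 35.7% when a peak of the other list within 500 bp counted as shared. The q threshold moved more. With a −log10 q of at least 5 for the restricted peak alone, 995 peaks remained, the share was 18.3%, the median fold enrichment 5.79 and the median width 262 bp. With that threshold on both lists, 1618 peaks and a share of 20.1% resulted. The cause was not tested.

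With the threshold on the restricted peak alone, the pSHF share moved to 11.8% for second heart field, 27.3% for gut mesenchyme, 25% for Fgf, Bmp, Tgf-beta, Notch and Pdgf, 38.1% for axon guidance, 27.1% for adhesion, 11.5% for sarcomere, 16.7% for ion handling, and 0% for the epicardial, foregut and neural tube lists. On both lists these shares were 14.8%, 28.6%, 32.1%, 35.8%, 21.25%, 10.7%, 23.3% and again 0% for the last 3, with 35.3% for retinoic acid. The shares over all genes to set beside these were 18.3% with the threshold on the restricted peak alone and 20.1% with it on both lists. The differences of Ttc28 and Sox6 turned to -1 with the threshold on the restricted peak. With it on both lists Sox6 turned to -3, Tcf4 to -1 and Tshz2 to -2. Of the other differences of named genes under these rules, 759 kept the pSHF share of the gene's peaks within its 95% interval and 82 did not. A gene left with no restricted peak was given an even share, and intervals are wide for genes with few peaks. These 2 counts therefore do not show that the gene differences hold. With 1 window per peak, a choice added after seeing the data, the 24 motif shares stayed within their intervals, but the E-box interval at pSHF-restricted peaks (13.6 to 32.5%) then overlapped that at shared pSHF peaks (9.37 to 13.7%), and the GATA intervals of pSHF-restricted (2.73 to 15.2%) and HT-restricted peaks (15.6 to 31.9%) parted. Motif counts around summits were not run.

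No paired analysis was possible because each tissue has 1 list, which carries no replicate number, so leaving out a replicate was not run either. The median summit pileup of the set was 8 reads and read totals are unknown; absence from the HT list at its threshold does not show closed chromatin.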
